A study of Mus musculus with 6 samples.

Results

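The small leucine-rich proteoglycans followed here are 8 genes, Dcn, Bgn, Lum, Fmod, Ogn, Prelp, Omd and Aspn, chosen by symbol from the 50385 genes of the table. All 8 passed the filter on low counts and were among the 20472 genes tested. The libraries come from hearts of male Mdx/Utrn dKO mice, which lack dystrophin and utrophin in both groups, so every comparison is between animals with the muscular dystrophy genotype. The setanaxib group (3 libraries) received the Nox4 inhibitor setanaxib at 60 mg/kg/day by gavage for 12 weeks, starting at 2 to 3 months of age. The vehicle group (3 libraries) received corn oil on the same schedule. A wild-type or untreated heart was not analysed here. The labels number the animals but do not say in words that each library is a separate mouse, so the p-values reflect spread among libraries, which may in part be technical.

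Small leucine-rich proteoglycans are secreted proteins with a curved core of leucine-rich repeats, and most carry chondroitin, dermatan or keratan sulfate chains. They bind collagen fibrils, set fibril diameter and spacing, and hold growth factors such as transforming growth factor beta (TGF-beta) in the matrix. In the heart they are made mainly by fibroblasts and vessel wall cells and take part in scar formation. Biglycan also binds dystroglycan and sarcoglycans at the muscle membrane in mice, the complex to which dystrophin and utrophin attach. By structure, decorin (Dcn), biglycan (Bgn) and asporin (Aspn) form class I, lumican (Lum), fibromodulin (Fmod), Prelp and osteomodulin (Omd) class II, and osteoglycin (Ogn) belongs to class III.

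Library totals lay between 110803307 and 154003318 estimated counts, and the least abundant member, Omd, still had 119 to 213 estimated counts per library. The heart muscle markers Myh6, Tnnt2, Tnni3, Actn2, Ryr2 and Pln summed to 27400 to 35720 CPM in setanaxib libraries and 28970 to 32780 CPM in vehicle libraries; CPM here is the estimated count over the TMM-scaled library size. Setanaxib replicate 3 stood apart in atrial muscle genes. Myl7, the atrial myosin light chain, was at 0.605, 1.33 and 637 CPM in setanaxib replicates 1, 2 and 3, against 23.3, 0.103 and 21.4 CPM in vehicle replicates 1, 2 and 3. Results below are therefore also given without setanaxib replicate 3 where that moves them.

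Across the family, 6 of 8 members had a negative log2 fold change (setanaxib minus vehicle) and 2 a positive one, with a median of -0.44, against 48.4% negative and a median of 0.01 over all genes tested. None of the 8 passed edgeR's quasi-likelihood test over all genes at an adjusted p of 0.05, where 0.00488% of genes were called. DESeq2 and limma-voom also called 0 members; over all genes DESeq2 called 2.43% (1.52% lower and 0.905% higher) and limma-voom 0.0%. Of the members, 3 (Lum, Bgn and Aspn) were at an unadjusted p under 0.05, all of them lower with setanaxib. Of all genes, 8.46% were at such a p, 4.69% lower and 3.76% higher. The same 3 were the members whose groups did not overlap, all lower. Of all genes, 17.6% did not overlap, 9.46% lower and 8.11% higher. Lum alone stayed at an unadjusted p under 0.05 without setanaxib replicate 1, without vehicle replicate 1 and without vehicle replicate 3. Fewer cells that make a transcript and less of it per cell cannot be told apart in bulk heart RNA.

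**Figure D1:**
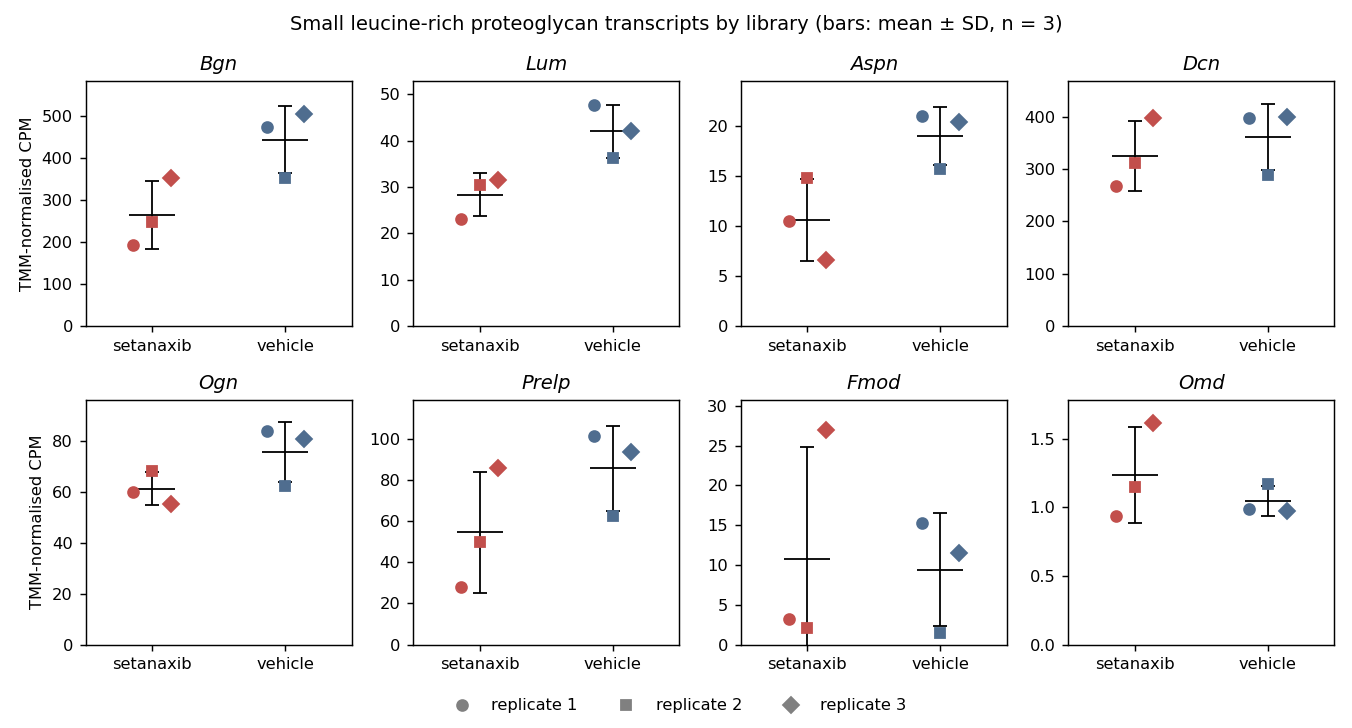
Normalised level (TMM-scaled CPM, vertical axis from 0) of each of the 8 members in the 3 setanaxib and the 3 vehicle libraries, with the mean and SD; markers give the replicate, and the lower SD bar of Fmod in the setanaxib group ends at the axis. For Bgn, Lum and Aspn every setanaxib library lies below every vehicle library, for Bgn by a narrow margin (351 against 353 CPM), and Fmod is high in setanaxib replicate 3 alone of its group.

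Among class I, Bgn, a ligand of Toll-like receptors when released from the matrix, was at 193, 247 and 351 CPM in setanaxib replicates 1, 2 and 3, against 473, 353 and 504 CPM in vehicle replicates 1, 2 and 3. The highest setanaxib library sat just under the lowest vehicle library, so the separation depends on a small difference between 2 libraries. Bgn averaged 264 ± 80.4 CPM with setanaxib and 443 ± 79.9 CPM with vehicle (SD, n = 3 each), which is -0.75 on the log2 scale (SE 0.25, edgeR adjusted p = 0.500, DESeq2 adjusted p = 0.0839). Without setanaxib replicate 3 the log2 fold change was -1.01.

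Asporin, which has a run of aspartate residues in place of attached sugar chains and binds TGF-beta, had the largest log2 fold change of the 8 members in edgeR. Aspn was at 10.5, 14.8 and 6.59 CPM in setanaxib libraries, against 21.0, 15.7 and 20.4 CPM in vehicle libraries. Its lowest value was in setanaxib replicate 3, the library in which Fmod was highest. Aspn averaged 10.6 ± 4.11 CPM with setanaxib and 19.0 ± 2.89 CPM with vehicle (SD, n = 3 each), which is -0.84 on the log2 scale (SE 0.30, edgeR adjusted p = 0.530, DESeq2 adjusted p = 0.169). Without setanaxib replicate 3 it was -0.59, and without setanaxib replicate 2 it was -1.16.

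Decorin, the best known collagen-binding member and a sink for TGF-beta, had groups that overlapped. Dcn was at 267, 311 and 397 CPM in setanaxib libraries, against 397, 288 and 400 CPM in vehicle libraries. Setanaxib replicate 3 lay close to the upper vehicle libraries, and vehicle replicate 2 among the setanaxib libraries. Dcn averaged 325 ± 66.2 CPM with setanaxib and 362 ± 63.7 CPM with vehicle (SD, n = 3 each), which is -0.15 on the log2 scale (SE 0.20, edgeR adjusted p = 0.891). That value was -0.32 without setanaxib replicate 3 and -0.29 without vehicle replicate 2, but -0.03 without setanaxib replicate 1, and -0.09 and -0.075 without vehicle replicates 1 and 3.

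Because Dcn and Bgn are close relatives that share ligands, each member was also set against Dcn in the same library, a ratio that does not depend on library scaling. The ratio of Bgn to Dcn was 0.722, 0.795 and 0.884 in setanaxib replicates 1, 2 and 3, against 1.19, 1.22 and 1.26 in vehicle replicates 1, 2 and 3. Every setanaxib ratio lay below every vehicle ratio. These ratios are not per length, so they give no order of the levels of the 2 genes. The mean log2 ratio was -0.33 ± 0.15 with setanaxib and 0.29 ± 0.04 with vehicle (SD, n = 3 each), a difference of -0.62. The exact two-sided permutation test gave p = 0.10, the smallest that 20 splits of 3 against 3 allow, and 0.233 after adjustment over the 7 ratios, so no ratio could pass in this design. Leaving out any of the 6 libraries kept the difference between -0.69 and -0.55. Set against Lum in place of Dcn, Bgn differed by -0.20 and Aspn by -0.33 on the log2 scale. The exact permutation p were 0.30 and 0.90, so neither separation held. Lum was itself lower with setanaxib (log2 fold change -0.57), so differences of other lower members shrink when set against it. Omd to Lum differed by 0.78, with the smallest possible exact permutation p, 0.10. The ratios thus depend on the gene they are set against.

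Ratios to Dcn also did not overlap for Lum and Aspn. The ratio of Lum to Dcn was 0.0860, 0.0977 and 0.0794 in setanaxib libraries, against 0.120, 0.126 and 0.105 in vehicle libraries (log2 difference -0.42, exact permutation p = 0.10, adjusted p = 0.233). The ratio of Aspn to Dcn was 0.0392, 0.0476 and 0.0166 in setanaxib libraries, against 0.0529, 0.0545 and 0.0510 in vehicle libraries (log2 difference -0.75, exact permutation p = 0.10, adjusted p = 0.233). The Aspn difference leaned on setanaxib replicate 3 and was -0.29 without it. Thus 3 of 7 members had a lower ratio with no overlap, where 2.87% of the 18529 genes above 0 in all libraries did, and 0 of 7 a higher one, where 8.42% did. The ratios of Prelp, Ogn, Omd and Fmod to Dcn overlapped between groups, with exact permutation p from 0.20 to 1.0 and adjusted p from 0.35 to 1.0.

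**Figure D2:**
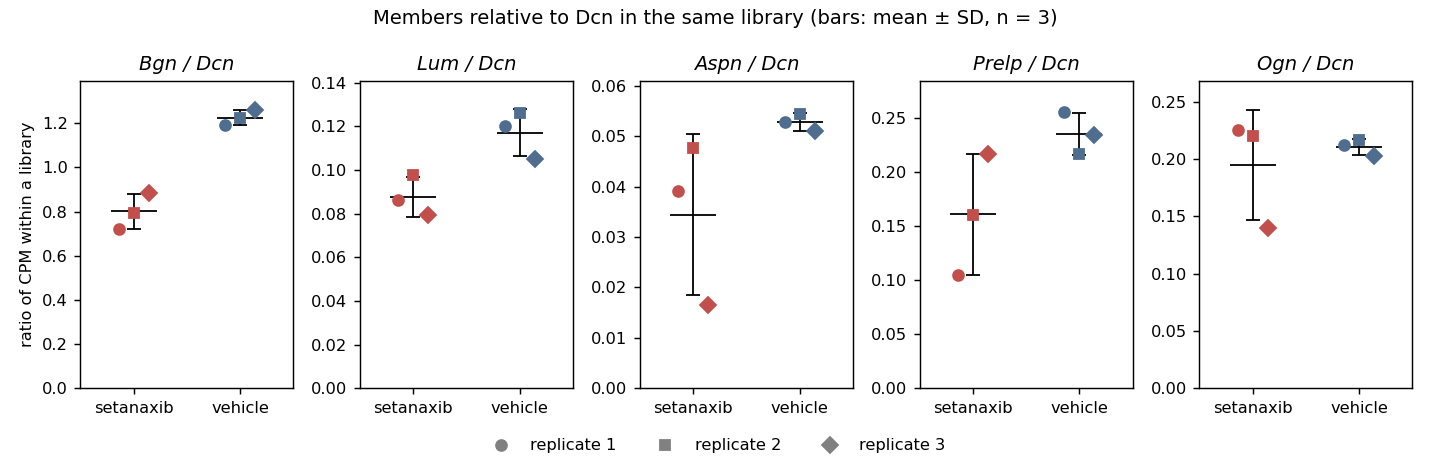
Ratio of the CPM of 5 members to that of Dcn within each library (vertical axis from 0), with the mean and SD over 3 libraries per group. Bgn to Dcn lies between 0.722 and 0.884 in the setanaxib libraries and between 1.19 and 1.26 in the vehicle libraries; Prelp and Ogn overlap between groups.

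Expressed per kilobase of exon, a scale on which different genes can be set side by side, Dcn averaged 168 ± 34.2 and Bgn 109 ± 33.3 CPM per kb with setanaxib (SD, n = 3). With vehicle the levels were 187 ± 32.8 CPM per kb for Dcn and 183 ± 33.0 CPM per kb for Bgn (SD, n = 3), with overlapping ranges. Compared within a library, Dcn was above Bgn in 5 of 6 libraries. With the length of the longest coding transcript in place of all exons, Dcn was above Bgn in 6 of 6. Below them in vehicle hearts came Ogn (29.6 CPM per kb), Prelp (23.8), Lum (17.2), Aspn (8.08), Fmod (3.02) and Omd (0.464). Neighbours in that order overlapped over the vehicle libraries for Dcn and Bgn, Ogn and Prelp, Prelp and Lum, and Fmod and Omd. Of the summed level of the 8 members per kb, Dcn made up 52.2%, 49.7% and 48.7% in setanaxib libraries, against 41.4%, 41.5% and 41.1% in vehicle libraries. Bgn made up 30.2%, 31.7% and 34.5% in setanaxib libraries, against 39.5%, 40.7% and 41.5% in vehicle libraries. Such shares sum to a fixed whole, so the higher share of Dcn and the lower share of Bgn are not separate observations.

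In class II, lumican, a keratan sulfate proteoglycan that spaces collagen fibrils, had the lowest p of the 8 members. Lum was at 23.0, 30.4 and 31.6 CPM in setanaxib libraries, against 47.7, 36.3 and 42.0 CPM in vehicle libraries. All setanaxib values lay below all vehicle values. Lum averaged 28.3 ± 4.65 CPM with setanaxib and 42.0 ± 5.70 CPM with vehicle (SD, n = 3 each), which is -0.57 on the log2 scale (SE 0.16, edgeR adjusted p = 0.450, DESeq2 adjusted p = 0.0518). Over the 6 fits without a library it ranged from -0.66 to -0.44.

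Prelp, a heparin-binding member that links basement membranes to collagen, was at 28.1, 49.9 and 86.3 CPM in setanaxib libraries, against 102, 62.5 and 93.7 CPM in vehicle libraries. Setanaxib replicate 3 lay inside the vehicle range and the other two setanaxib libraries below it. The log2 fold change was -0.65 (SE 0.41, edgeR adjusted p = 0.734). It was -1.14 without setanaxib replicate 3 and -0.34 without setanaxib replicate 1.

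Fibromodulin, which guides collagen cross-linking and is abundant in tendon and cartilage, varied 18.3-fold between its highest and lowest library. Fmod was at 3.15, 2.03 and 27.0 CPM in setanaxib libraries, against 15.3, 1.48 and 11.5 CPM in vehicle libraries. High and low libraries occurred in both groups. The fitted difference, 0.19 on the log2 scale (SE 1.18, edgeR adjusted p = 0.986), turned to -1.86 without setanaxib replicate 3, to -0.32 without vehicle replicate 2 and to -0.13 in limma-voom. No direction can be given for Fmod from these libraries. Osteomodulin, a member best known from bone, was at 0.936, 1.15 and 1.62 CPM in setanaxib libraries, against 0.989, 1.17 and 0.970 CPM in vehicle libraries. Its log2 fold change was 0.24 (SE 0.28, edgeR adjusted p = 0.877), and 0.00 without setanaxib replicate 3.

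Osteoglycin, the class III member and a keratan sulfate protein also called mimecan, was at 60.3, 68.3 and 55.4 CPM in setanaxib libraries, against 84.2, 62.3 and 81.0 CPM in vehicle libraries. Vehicle replicate 2 lay within the setanaxib range, and without it the groups of both Ogn and Prelp no longer overlapped. That brought the members lower without overlap to 5. The share of all genes without that library is not given here, and groups with fewer libraries separate more easily, so 5 is no stronger result. Ogn averaged 61.3 ± 6.52 CPM with setanaxib and 75.8 ± 11.9 CPM with vehicle (SD, n = 3 each), which is -0.31 on the log2 scale (SE 0.15, edgeR adjusted p = 0.647).

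**Figure D3:**
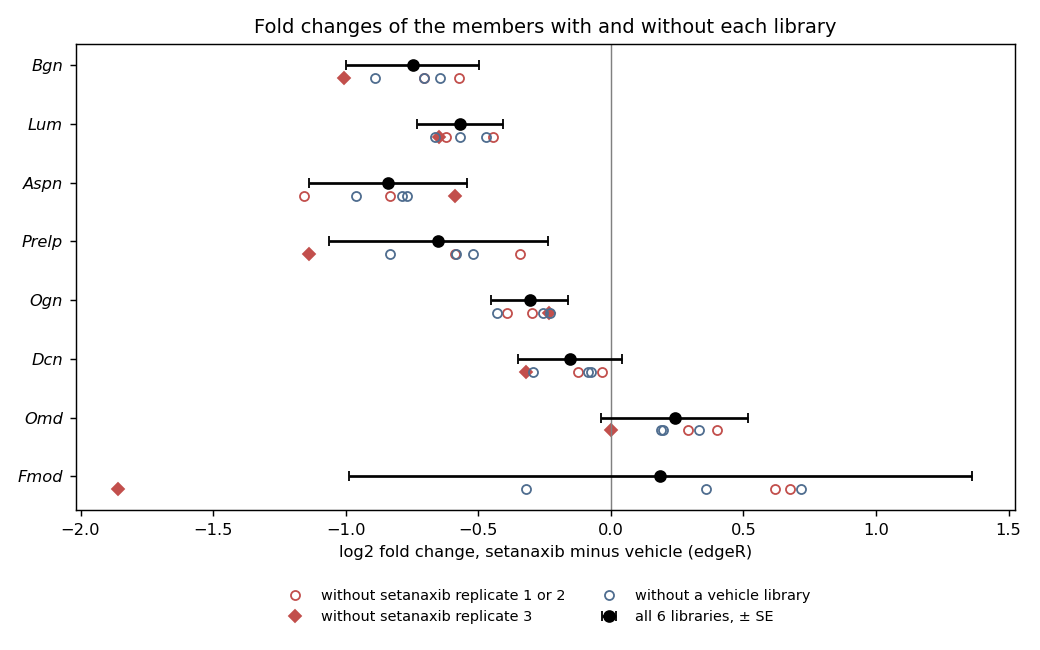
Log2 fold change of each member (setanaxib minus vehicle, edgeR) with all 6 libraries (black, ± SE) and without each library in turn (coloured). Bgn, Lum, Aspn, Prelp, Ogn and Dcn stay negative in all of these fits, Omd reaches 0.00 and Fmod -1.86 without setanaxib replicate 3 (filled diamonds).

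Members sit in gene clusters in the mouse genome, read here from GENCODE M21 (build GRCm38). Dcn is followed by Lum on chromosome 10, Prelp by Fmod on chromosome 1, and the relative Ecm2 by Aspn, Omd and Ogn on chromosome 13, while Bgn lies alone on chromosome X. Neighbours differed in fitted log2 fold change, as Dcn (-0.15) adjoins Lum (-0.57), and Omd (0.24) lies between Aspn (-0.84) and Ogn (-0.31). Aspn, Omd and Ogn lie inside Cenpp, a centromere protein gene on the opposite strand, with which they share 0 exon bases in GENCODE M21. Cenpp was at 0.837 to 1.09 CPM in setanaxib libraries and 1.21 to 1.38 CPM in vehicle libraries, near the level of Omd, whose value is the less certain since no source used here says whether reads were counted by strand. Prelp shares 350 exon bases with the antisense gene Gm15851, which had at most 29 estimated counts in any library. Stretches of 50 bases shared with transcripts of other genes made up 3.7% of those of Omd, 0.111% of those of Bgn and 0% of those of the other 6 members.

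Start-site windows of Bgn, Aspn and Fmod are shown because the groups of Bgn and Aspn did not overlap and Fmod is the member that varied most between libraries. They come from RefSeq (build GRCm38.p6), whose table held 6 of the 8 members. Each runs 5′ to 3′ from 250 bases before to 50 after the start, on the + strand of chrX:73483351-73483650 (Bgn), chr13:49544193-49544492 (Aspn) and chr1:134037004-134037303 (Fmod). Capitals mark every match, on either strand, to 4 motifs. The TATA box was searched as TATAAA. For the SMAD box, bound by TGF-beta signalling factors, the letters were CAGAC. For the GC box, bound by Sp factors, the letters were GGGCGG. The TEAD motif was searched as GGAATG.
Bgn: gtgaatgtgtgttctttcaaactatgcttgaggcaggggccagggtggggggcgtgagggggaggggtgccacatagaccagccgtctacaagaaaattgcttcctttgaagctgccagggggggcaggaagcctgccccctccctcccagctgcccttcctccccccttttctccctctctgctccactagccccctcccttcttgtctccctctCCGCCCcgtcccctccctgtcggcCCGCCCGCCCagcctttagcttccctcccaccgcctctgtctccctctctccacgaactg
Aspn: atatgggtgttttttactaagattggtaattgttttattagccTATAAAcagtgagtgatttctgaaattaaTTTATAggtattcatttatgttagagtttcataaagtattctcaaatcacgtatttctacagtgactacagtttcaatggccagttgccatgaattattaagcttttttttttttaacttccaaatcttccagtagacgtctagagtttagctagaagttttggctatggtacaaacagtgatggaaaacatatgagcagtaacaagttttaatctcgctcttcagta
Fmod: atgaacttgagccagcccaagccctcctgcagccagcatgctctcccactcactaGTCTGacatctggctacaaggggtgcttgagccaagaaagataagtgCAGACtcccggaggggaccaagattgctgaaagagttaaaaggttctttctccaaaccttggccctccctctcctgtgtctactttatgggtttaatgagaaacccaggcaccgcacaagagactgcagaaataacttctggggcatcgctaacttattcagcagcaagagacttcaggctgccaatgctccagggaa
The Bgn window was 63.7% G and C and the Aspn window 31.0%, a value below which only 1.41% of 27025 promoters of the same length lay (median 52.7%). Bgn held 3 GC boxes, 34, 10 and 6 bases before the start, the last 2 of them overlapping, and none of the other 3 motifs. A GC box was present in 35.9% of all promoters. Aspn held 2 TATA-box matches, 207 and 178 bases before the start, far from the usual place of that element, and 14.2% of promoters held 1 or more. Fmod held 2 SMAD boxes, 195 and 148 bases before the start, against 49.7% of promoters with a match. The windows of Bgn and Aspn thus shared no motif of this search, and a match is a description of letters only.

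Fmod was not alone in its pattern over libraries. The 3 libraries with the highest sum of the atrial markers Myl7, Myl4 and Nppa (setanaxib replicate 3 at 2914 CPM, vehicle replicate 3 at 568 CPM and vehicle replicate 1 at 240 CPM) were also the 3 highest libraries for Dcn, Prelp and Fmod. The other 3 libraries had atrial sums of 66.5 and 108 CPM (setanaxib replicates 1 and 2) and 121 CPM (vehicle replicate 2). Among the 5 tested relatives, the same 3 were highest for Ecm2, Podn, Chad and Tsku, but not for Podnl1, which was highest in the vehicle libraries. How many of all genes share these 3 highest libraries was not counted. For Bgn, Lum and Aspn the 3 highest libraries were instead the 3 vehicle libraries. Within each group, however, Bgn rose with the atrial sum. It was at 193, 247 and 351 CPM in setanaxib replicates 1, 2 and 3, and at 353, 473 and 504 CPM in vehicle replicates 2, 1 and 3. The order of vehicle replicates 1 and 3 in that sum came from Nppa (193 and 523 CPM). Between those libraries Myl4 was nearly level (23.4 and 23.9 CPM) and Myl7 slightly lower in vehicle replicate 3 (23.3 and 21.4 CPM). Lum rose in the same order as Bgn in setanaxib libraries and was the lowest of its group in vehicle replicate 2. Aspn and Ogn were lowest in setanaxib replicate 3, and Omd was highest there. The part of atrial tissue in the levels of Dcn, Prelp, Fmod or any other member was not tested.

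**Figure D4:**
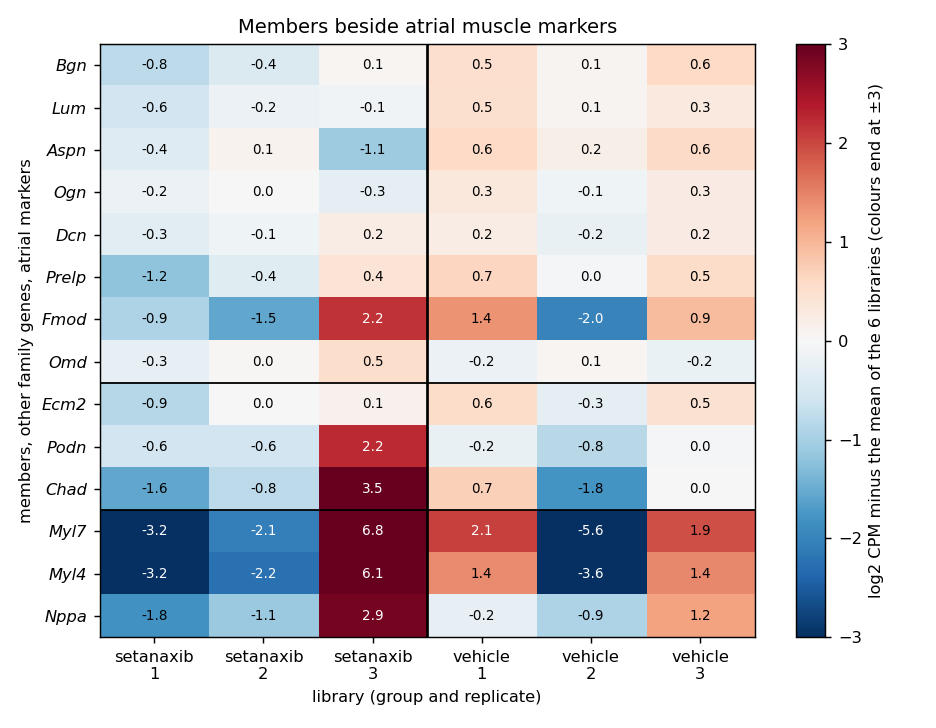
Log2 CPM of the 8 members, 3 further family genes and 3 atrial muscle markers in each library, centred on the gene's mean over the 6 libraries (colours end at ±3). Fmod, Podn and Chad are high in setanaxib replicate 3 together with Myl7, Myl4 and Nppa, whereas Aspn and Ogn are lowest there.

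Of 9 other genes of the family, 5 could be tested and none passed edgeR (unadjusted p under 0.05 for 0, DESeq2 0). Podn, a vessel wall member, was at 19.3, 19.4 and 137 CPM in setanaxib libraries, against 24.6, 16.2 and 28.4 CPM in vehicle libraries. Chad, chondroadherin of cartilage, was at 0.260, 0.456 and 8.92 CPM in setanaxib libraries, against 1.31, 0.219 and 0.794 CPM in vehicle libraries. In both genes the value of setanaxib replicate 3 exceeded every other library, 4.82-fold above the next for Podn and 6.81-fold for Chad. The fitted log2 difference was -0.49 ± 0.32 for Ecm2, whose groups overlapped, and -0.65 ± 0.48 (SE) for Tsku. Podnl1, chosen for mention after its values were seen, was listed at 0 in setanaxib replicates 1 and 2 and reached at most 0.470 CPM. The cartilage and eye genes Epyc, Optc and Nyx were above 0 in 1 library each, and Kera in none.

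Markers of fibroblasts and of other heart cells were read in the same libraries. Counts in these and the later lists stand against 8.46% of all genes at an unadjusted p under 0.05 in edgeR and 2.43% called by DESeq2. Activated fibroblast markers summed to 102, 153 and 114 CPM in setanaxib libraries, against 401, 215 and 478 CPM in vehicle libraries, with 10 of 10 lower and none passing edgeR (6 at an unadjusted p under 0.05, DESeq2 6). The 4 of lowest p were Postn, Thbs4, Ltbp2 and Meox1, at -1.48, -2.20, -2.07 and -1.69 on the log2 scale. Of that list Cthrc1, named for this reason, was the gene at 0 in any library, setanaxib replicates 1 and 3. General fibroblast markers summed to 1126, 1302 and 2047 CPM in setanaxib libraries, against 1639, 1141 and 1655 CPM in vehicle libraries, with 8 of 11 lower, 0 passing edgeR (4 at an unadjusted p under 0.05, DESeq2 3) and a median log2 fold change of -0.26. Gsn alone made up most of each sum, at 852, 958 and 1676 CPM in setanaxib libraries, against 1176, 770 and 1165 CPM in vehicle libraries. The 4 of lowest p were Pi16, Medag, Col15a1 and Mfap5, at -0.88, -0.61, -0.61 and -0.87. The 3 on the other side were Scara5, Dpep1 and Gsn, at 0.24, 0.22 and 0.16. Macrophage markers summed to 226, 280 and 248 CPM in setanaxib libraries, against 366, 460 and 360 CPM in vehicle libraries, with 10 of 10 lower at an unadjusted p under 0.05, 0 passing edgeR and 7 called by DESeq2. Ctss, Fcer1g, C1qc and Lyz2 had the lowest p there, at -0.87, -0.85, -0.52 and -0.77. Smooth muscle and pericyte markers summed to 829 to 1258 CPM in setanaxib libraries and 1145 to 1271 CPM in vehicle libraries, with 9 of 11 lower (0 passing edgeR, 3 at an unadjusted p under 0.05, DESeq2 1). Among them Notch3, the gene DESeq2 called, Cspg4, Vtn and Pdgfrb were at -0.33, -0.58, -0.61 and -0.54. Endothelial markers summed to 552 to 718 CPM with setanaxib and 732 to 816 CPM with vehicle, with 7 of 8 lower (0 passing edgeR, at an unadjusted p under 0.05 or by DESeq2). Kdr, Cldn5, Cdh5 and Egfl7 were at -0.64, -0.58, -0.14 and -0.33. The part of these cell types in the values of Bgn, Lum and Aspn was not tested.

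Collagens that the family binds lay on the same side. Of 10 tested, 9 were lower with a median log2 fold change of -0.69. None passed edgeR, 8 were at an unadjusted p under 0.05 (8.46% of all genes) and DESeq2 called 4 (2.43% of all genes). Col6a3, Col3a1, Col1a2 and Col6a2, the 4 of lowest p, had setanaxib-minus-vehicle log2 differences of -0.80 ± 0.13, -0.94 ± 0.25, -0.78 ± 0.21 and -0.58 ± 0.17 (SE), with edgeR adjusted p from 0.234 to 0.450. Their DESeq2 adjusted p reached at most 0.0407, the value of Col6a2. Lum lay close to Col6a2, with the same edgeR adjusted p of 0.450 and a DESeq2 adjusted p of 0.0518. Col12a1, a fibril-associated collagen, was the 1 tested member on the other side, at 27.4 CPM in setanaxib replicate 1 against 3.13 to 11.6 CPM elsewhere.

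Enzymes that build the sugar chains were the next list. Of 22 tested genes of chondroitin and dermatan sulfate synthesis, 15 were lower with a median of -0.09, none passed edgeR and 1 was at an unadjusted p under 0.05. That was Chpf, a chondroitin polymerising factor, at 22.2, 20.6 and 19.7 CPM in setanaxib libraries, against 24.3, 25.6 and 24.6 CPM in vehicle libraries. Dse, the epimerase that turns chondroitin into dermatan sulfate, was at 4.19, 6.96 and 8.01 CPM in setanaxib libraries, against 10.1, 8.39 and 9.89 CPM in vehicle libraries. Of the list, 3 genes were lower without overlap (Chpf, Dse and Chst7) and 0 higher, against 17.6% of all genes in either direction. For Chpf and Dse the log2 differences were -0.25 ± 0.09 and -0.56 ± 0.25 (SE). Xylt1, which starts the chain, and the sulfotransferase Chst7 differed by -0.32 ± 0.15 and -0.67 ± 0.32 (log2, SE). Of 6 tested keratan sulfate genes 4 were lower and 2 higher, with a median of -0.28 and 0 at an unadjusted p under 0.05 or called by edgeR or DESeq2. The 4 of lowest p were Chst2, B3gnt2 and B4galt1, at -0.59, -0.40 and -0.15 on the log2 scale, and B4galt4 at 0.25.

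Among 26 receptors and partners of these proteins 15 were lower and 11 higher, none past edgeR. At an unadjusted p under 0.05 were 6 lower and 2 higher, against 4.69% and 3.76% of all genes. The growth factor receptor Igf1r, which decorin can bind, was at 92.5, 78.1 and 90.4 CPM in setanaxib libraries, against 61.7, 56.6 and 65.2 CPM in vehicle libraries. Erbb4, a receptor of the epidermal growth factor family, was at 22.9, 24.9 and 48.0 CPM in setanaxib libraries, against 14.6, 14.5 and 17.2 CPM in vehicle libraries. DESeq2 called both higher (adjusted p = 0.00179 and 0.0303), while edgeR did not (adjusted p = 0.330 and 0.447). Tgfb1 and Tgfb3, growth factors held by decorin and biglycan, differed by -0.54 ± 0.13 and -0.73 ± 0.21 (log2, SE), with DESeq2 calling Tgfb1 alone (adjusted p = 0.00959). Biglycan's receptors Tlr4 and Tlr2, named after their values were seen, were at -0.52 (SE 0.16) and -0.85 (SE 0.35), without overlap between groups. Other receptors of the list did not go with them. Cd14 and P2rx4 were at 0.52 and 0.04, and Ly96, Cd44 and P2rx7 at -0.28, -0.31 and -0.20, all with overlap. In the whole list 7 genes were lower and 3 higher without overlap, against 9.46% and 8.11% of all genes.

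Of 15 tested proteases that process or cut the family 12 were lower, with a median of -0.28 and none past edgeR or DESeq2. At an unadjusted p under 0.05 were 3, against 8.46% of all genes. Htra1, a serine protease that degrades decorin and biglycan, was higher in all setanaxib libraries at 44.0, 42.3 and 45.0 CPM, against 37.4, 39.3 and 37.3 CPM in vehicle libraries (log2 fold change 0.21, SE 0.08, edgeR adjusted p = 0.548). Adamts4, Mmp2 and Mmp3 differed by -1.05 ± 0.41, -0.46 ± 0.18 and -0.47 ± 0.20 (log2, SE). Without setanaxib replicate 3 the medians moved to -1.11 for the other family genes (-0.49 with it), -0.23 for chondroitin and dermatan sulfate genes, -0.55 for keratan sulfate genes, -0.44 for receptors (-0.15 with it), -0.50 for proteases and -0.43 for general fibroblast markers. For the collagens the median moved to -0.90 (-0.69 with it), for endothelial markers to -0.48 (-0.23) and for activated fibroblast markers to -1.74 (-1.63). Smooth muscle and pericyte markers moved to -0.36 (-0.30) and macrophage markers to -0.66 (-0.68). The members' own median moved to -0.62.

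**Figure D5:**
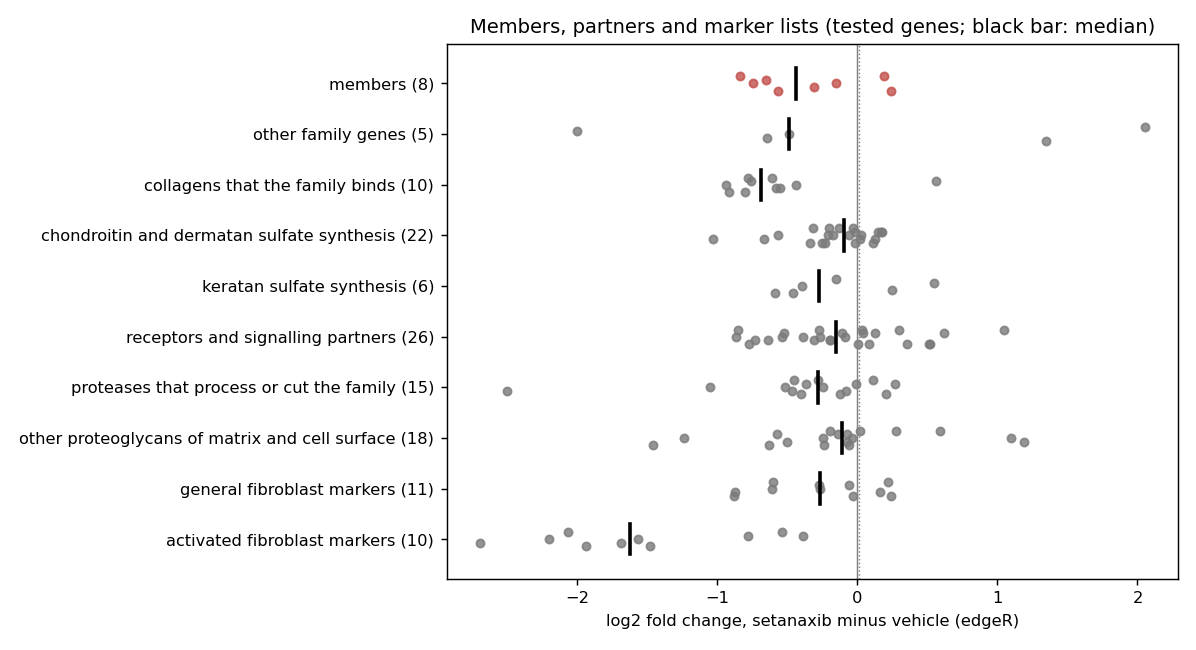
Log2 fold change (setanaxib minus vehicle, edgeR) of every tested gene of the members and of 9 partner and marker lists, with the number tested in parentheses and black bars at the medians; the dotted line is the median of all genes tested. The members' median of -0.44 lies between that of the collagens (-0.69) and that of chondroitin and dermatan sulfate genes (-0.09), and activated fibroblast markers lie lowest (-1.63).

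Genes with the most similar course over the 6 libraries were found by the root mean square difference of centred log2 CPM. Closest to the mean course of the 8 members was Adamts2, a procollagen processing protease, at 0.0640, followed by Olfml3 (0.0934), Ccdc80 (0.103), Igsf10 (0.104), Mxra8 (0.109) and Shisa4 (0.115), where the members' mean course itself had a spread of 0.401. Fmod weighs most in that mean course, as its own spread was 1.57, against 0.221 (Ogn) to 0.642 (Prelp) for the other members. A mean course without Fmod was not tested. Of single members, the nearest gene was Col5a2 for Bgn (0.0689) and Col6a2 for Lum (0.0623), both collagen chains. For Dcn it was Prkcz2 (0.0587), for Ogn Crispld2 (0.0564), for Prelp Capn5 (0.0896), for Omd Cdk6 (0.0714) and for Aspn the chemokine gene Ccl21b (0.154), which has near-identical copies and is uncertain. The nearest gene to Fmod, Cnn1, differed by 0.712, a distance to be read beside Fmod's own larger spread of 1.57.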

How the data were processed

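The authors deposited a table of estimated counts per gene for 6 libraries, in whole numbers and unscaled, so no rounding was needed before count tests. The submitters' processing notes list build GRCm39 and, without roles, DESeq2 1.42.0, featureCounts 2.0.1, STAR 2.5.4b and FastQC 0.11.9. Per the file headers, names have the form written by StringTie's count script. Strand setting and RNA selection are not given in the sources used here.

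In R 4.3.3, genes were kept with filterByExpr (minimum count 10), scaled by TMM (factors 0.892 to 1.19) and tested with edgeR 4.0.16 (quasi-likelihood F test, two-sided, Benjamini-Hochberg over 20472 genes, threshold 0.05). Standard errors come from the F statistic. DESeq2 1.42.0 and limma-voom (limma 3.58.1) were alternatives on the same genes, next to RLE scaling, no filter, leaving out mitochondrial genome genes and leaving out each library. The fits were tested on counts simulated with edgeR's own dispersion estimates, with log2 changes of 2 and 3 only. There DESeq2 made more false calls than edgeR or limma-voom, and its calls are given as an alternative. Those changes exceed the fitted change of any member, so recovery at the members' sizes was not tested. Ratios used SciPy 1.17.1 permutation tests. Exon lengths and overlaps come from GENCODE M21 (GRCm38), not the authors' build, and all 8 member identifiers matched it.

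Members and lists were chosen with earlier results of these data known. The text names all members, and of each list the genes that passed, otherwise up to 4 of lowest p; others are named for a stated reason. Nearest genes have an average log2 CPM of at least 0 (prior count 2).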

Additional observations from a re-analysis of the deposited data

How the results depend on the processing

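The number of members called was 0 in every fit run. The number of genes called over the whole table was 1 with edgeR, 494 with DESeq2 and 0 with limma-voom, and 0 to 1 without 1 library. Members at an unadjusted p under 0.05 numbered 3, and 1 to 4 without 1 library. Members lower without overlap numbered 3, and 3 to 5 without 1 library, for which the share of all genes is not given here. The log2 fold change of Fmod was 0.19, but -0.13 with limma-voom, -1.86 without setanaxib replicate 3 and -0.32 without vehicle replicate 2, and up to 0.72 without vehicle replicate 1. The other 7 members kept their sign in all 11 alternatives. The log2 ratio of Fmod to Dcn, -0.04, ranged from -1.03 to 0.66 without 1 library, and that of Ogn to Dcn, -0.14, from -0.26 to 0.082. Against Lum in place of Dcn they were 0.38 and 0.27, a shift that follows from the difference of Lum to Dcn itself (-0.42). The cause of the ranges without 1 library was not tested. The ratio of Bgn ranged from -0.69 to -0.55 without 1 library. No paired analysis was possible because the labels give no numbering that links a setanaxib library to a vehicle library. With 3 libraries per group, the spread between libraries limits the precision, and Omd, at 119 to 213 estimated counts, is the member of least depth.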

Other observations

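Other proteoglycans of the matrix and the cell surface were measured in the same libraries. Of 18 tested genes 13 were lower and 5 higher with setanaxib, with a median log2 fold change of -0.11 (-0.25 without setanaxib replicate 3); none passed edgeR, 6 were at an unadjusted p under 0.05, and DESeq2 called 3 lower and 1 higher. Versican (Vcan), the large hyaluronan-binding proteoglycan of provisional matrix, was at 38.0, 31.4 and 32.6 CPM in setanaxib libraries, against 54.9, 52.9 and 50.3 CPM in vehicle libraries (log2 fold change -0.63, SE 0.10, edgeR adjusted p = 0.234). Prg4, the joint lubricant lubricin, was at 14.2, 17.6 and 11.8 CPM in setanaxib libraries, against 27.6, 32.3 and 43.1 CPM in vehicle libraries (log2 fold change -1.24, SE 0.22, edgeR adjusted p = 0.284). Tgfbr3, betaglycan, the membrane proteoglycan that presents TGF-beta, was higher at 105, 94.0 and 131 CPM in setanaxib libraries, against 76.4, 65.4 and 77.3 CPM in vehicle libraries (log2 fold change 0.59, SE 0.15, edgeR adjusted p = 0.396). Sdc3, a syndecan, had a log2 fold change of -0.50 (SE 0.13). These are the 4 genes of lowest p in the list. Over all 18, 6 genes were lower and 1 higher without overlap, against 17.6% of all genes tested in either direction.

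The summed level of the 8 small leucine-rich proteoglycans was 264, 323 and 421 CPM per kb in setanaxib libraries, against 495, 358 and 502 CPM per kb in vehicle libraries. These sums overlapped through setanaxib replicate 3, and those of setanaxib replicates 1 and 2 lay below every vehicle library. Dcn and Bgn made up most of each sum.

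Of 6 tested markers of tendon, cartilage and valve 3 were lower and 3 higher, with a median log2 fold change of -0.25 (-1.13 without setanaxib replicate 3), 0 called by edgeR or DESeq2 and 1 at an unadjusted p under 0.05. That was Scx, a tendon transcription factor, at 3.58, 4.28 and 2.36 CPM in setanaxib libraries, against 5.58, 4.66 and 5.21 CPM in vehicle libraries (log2 fold change -0.60, SE 0.24, edgeR adjusted p = 0.583). Comp, Cytl1 and Sox9, the next by p, were at -1.56, 0.68 and -0.55 with overlapping groups. Cilp2, a cartilage protein named after its values were seen, was listed at 0 in setanaxib replicates 1 and 2 and vehicle replicate 2 and was at 18.2 CPM in setanaxib replicate 3. Acan and Col2a1, defining genes of cartilage, were at 0 in all 6 libraries. The epicardial markers Upk1b and Wt1 were highest in setanaxib replicate 3, at 9.58 and 9.78 CPM.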
